A study of Arabidopsis thaliana with 6 samples.

Results

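Indole-3-acetic acid, the main plant auxin, is made from tryptophan in a pair of enzyme steps. The aminotransferase TAA1 and its relatives TAR1 and TAR2 turn tryptophan into indole-3-pyruvate, and the YUC flavin monooxygenases turn that into indole-3-acetic acid. In the seed of *Arabidopsis thaliana*, auxin made in the endosperm after fertilization is known to promote endosperm growth and to start seed coat development, and auxin made in or delivered to the embryo patterns it. The members described here are the 3 aminotransferase genes TAA1, TAR1 and TAR2 and the 7 monooxygenase genes YUC1, YUC2, YUC3, YUC4, YUC6, YUC10 and YUC11, chosen as a list by their gene identifiers. They are 10 of 37336 genes in the deposited table, and each had reads in at least 1 library.

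The series compared polyadenylated RNA from siliques of the *eml1-2 eml3-4* double mutant (dm) with wild type (WT), 3 libraries each. The siliques were self-pollinated and covered 1 to 5 days after pollination in both genotypes, so a silique holds fruit wall, seed coat, endosperm and embryo together. The accessions of dm and WT, whether a library came from 1 plant or from pooled plants, and whether replicates were separate harvests were not stated in any source used. The p-values therefore measure the spread between these libraries, which may be technical. The series title asks whether EML histone readers hold back seed development without fertilization, and the siliques measured here were pollinated.

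EML3 stood at 190, 173 and 198 normalized reads in dm replicates 1, 2 and 3, and at 2255, 2129 and 2718 in WT replicates 1, 2 and 3. Its log2 change was -3.65 with an SE of 0.15 (limma adjusted p = 2.24e-06). EML1 was 1144 ± 83.7 in dm and 1281 ± 88.0 in WT (SD, n = 3 each), and counts per gene do not check its allele. Depth was 26771227 to 39246167 reads per library. Seed coat markers such as BAN (10982 to 14784) and fruit wall markers such as FUL (1724 to 2519) were present in every library, as the silique label implies. The replicate 3 library of dm stood apart from the other 5. The summed level of 9 seed storage genes was 68296 there, against 305 and 315 in the other dm libraries and 277 to 472 in WT. The summed level of 6 embryo markers was 2034 there, against 708 and 848 in the other dm libraries and 1307 to 1497 in WT.

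None of the 10 genes passed the test between dm and WT. With all 6 libraries, 7 of the 10 had a mean normalized value of at least 10 and were tested, and 0 of those 7 passed in limma at an adjusted p of 0.05. Over all 21751 genes tested that way, 6.79% passed. At an unadjusted p under 0.05 stood 3 of the 7, TAR2 lower and YUC3 and YUC6 higher in dm, where 21.5% of all tested genes did. EdgeR on the recovered reads kept 3 aminotransferase and 4 monooxygenase genes with its filter and called 0, where 6.49% of genes tested passed. With no filter it called 0 of the 10, where 6.72% passed, and DESeq2 called 0 of the 10, where 10.3% passed. The authors' deposited table called 0, against 9.65% of all genes. Over the 18 alternatives the share of all genes called ran from 2.62% to 12.1%, with 0 of the members tested in each. Filters left fewer than 10 tested in most of these, and a minimum mean of 50 left 2 aminotransferase and 2 monooxygenase genes. The 3 dm libraries lay wholly on one side of the 3 WT libraries in 5 of the 10 genes, 2 higher and 3 lower, where 21.4% of the genes with at least 1 read did so, 11.3% higher and 10.1% lower. Of the 7 that passed the filter 4 did so, where 26.9% of tested genes did. YUC4 passed that filter only through its WT libraries. The median log2 change of the 7 was 0.34, with 4 positive and 3 negative, and the median over all tested genes was 0.0032. In a mixed tissue, fewer cells of a type and less RNA per cell cannot be told apart for any of these values.

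**Figure D1:**
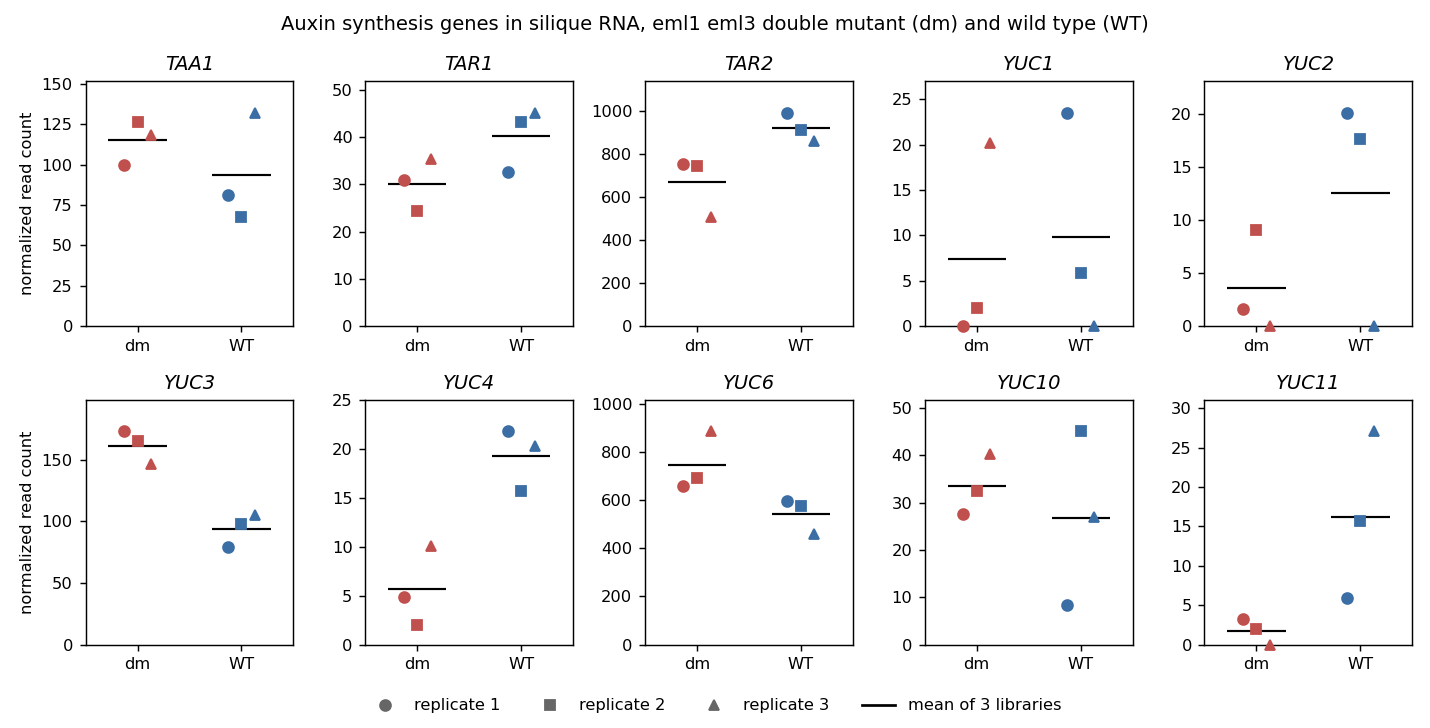
Normalized read count (y axis, from 0, a separate scale for each gene) of the 10 genes in the 3 dm and 3 WT libraries; the marker shape gives the replicate and the line the mean of 3 libraries. TAR2, YUC4 and YUC11 lie lower and YUC3 and YUC6 higher in every dm library than in every WT library, while TAA1, TAR1, YUC1, YUC2 and YUC10 overlap.

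Most aminotransferase transcript came from TAR2 in both genotypes, and TAR2 was lower in each dm library. TAR2 (AT4G24670), which acts redundantly with TAA1 in embryo and flower development, stood at 752, 742 and 507 normalized reads in dm replicates 1, 2 and 3, and at 989, 908 and 858 in WT replicates 1, 2 and 3. The groups did not overlap, and dm replicate 3 was the lowest of the 6 libraries. The means were 667 ± 139 in dm and 918 ± 65.9 in WT (SD, n = 3 each), 1.38-fold lower in dm. The log2 change was -0.48 ± 0.18 (SE) with a 95% confidence interval from -0.87 to -0.09 and did not pass (limma adjusted p = 0.14). Without dm replicate 3 the log2 change was -0.29 (limma adjusted p = 0.216).

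TAA1 (AT1G70560), the founding member of the family, stood at 99.8, 127 and 118 in dm replicates 1, 2 and 3, and at 81.3, 67.6 and 132 in WT replicates 1, 2 and 3. The highest library was WT replicate 3 and the lowest WT replicate 2, so the spread of WT enclosed all dm values. Its log2 change was 0.34 ± 0.34 (SE; limma adjusted p = 0.61), with a 95% confidence interval from -0.40 to 1.09. That interval holds changes from 1.32-fold lower to 2.13-fold higher in dm.

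TAR1 (AT1G23320), known from the endosperm, was low, at 30.8, 24.3 and 35.3 in dm replicates 1, 2 and 3, and at 32.7, 43.1 and 45.1 in WT replicates 1, 2 and 3. Only dm replicate 3 reached above the lowest WT library. The means were 30.1 ± 5.52 in dm and 40.3 ± 6.66 in WT (SD, n = 3 each). TAR1's log2 change, -0.41 ± 0.47 (SE), did not pass (limma adjusted p = 0.671), and was -0.27 without dm replicate 2. Its 95% confidence interval ran from -1.44 to 0.63.

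Among the monooxygenase genes YUC6 and YUC3 were the most abundant, and both were higher in each dm library. YUC6 (AT5G25620), known to act with YUC2 in stamens, stood at 659, 693 and 886 in dm replicates 1, 2 and 3, and at 595, 574 and 459 in WT replicates 1, 2 and 3. The groups did not overlap, but dm replicate 1 lay closer to WT replicate 1 than to dm replicate 3. The log2 change of 0.45 ± 0.17 (SE), from 746 ± 122 in dm and 543 ± 73.4 in WT (SD, n = 3 each), did not pass (limma adjusted p = 0.158). It was 0.32 without dm replicate 3 and 0.34 without WT replicate 3.

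YUC3 (AT1G04610), known mainly from roots, stood at 173, 165 and 146 in dm replicates 1, 2 and 3, and at 78.8, 98.0 and 105 in WT replicates 1, 2 and 3. The lowest dm library was above the highest WT library by more than either group's SD. The means were 161 ± 13.7 in dm and 93.9 ± 13.5 in WT (SD, n = 3 each), 1.72-fold higher in dm. With a log2 change of 0.78 ± 0.27 (SE) and a 95% confidence interval from 0.18 to 1.39 it came nearest to the threshold among the 7 (limma adjusted p = 0.121). Without dm replicate 3 its log2 change was 0.85 (limma adjusted p = 0.0877), the lowest adjusted p of any of the 10 genes under the alternatives tried.

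YUC1 and YUC4 act together in floral organs and in the embryo. YUC4 (AT5G11320) stood at 4.87, 2.03 and 10.1 in dm replicates 1, 2 and 3, and at 21.8, 15.7 and 20.3 in WT replicates 1, 2 and 3. The groups did not overlap, on 16 reads in dm and 60 in WT in all. Counts of YUC4 and of YUC1 were even in all 6 libraries, zeros included. If reads came in pairs, there were fewer independent counts than reads. The means were 3.40 times apart, with the higher one in WT, and the log2 change of -1.79 ± 0.85 (SE) did not pass (limma adjusted p = 0.26). Its 95% confidence interval, from -3.68 to 0.10, reached zero. YUC1 (AT4G32540) was under the filter, at 0, 2.03 and 20.2 in dm replicates 1, 2 and 3, and at 23.5, 5.88 and 0 in WT replicates 1, 2 and 3. Most of its dm reads, 16 of 18, came from replicate 3, the library with the highest summed levels of storage and of embryo markers. Most of its WT reads, 28 of 34, came from replicate 1. Whether the embryo and storage levels of dm replicate 3 bear on YUC1 was not tested.

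YUC2 (AT4G13260), which acts in floral organs and leaves, was also under the filter. It stood at 1.62, 9.11 and 0 in dm replicates 1, 2 and 3, and at 20.1, 17.6 and 0 in WT replicates 1, 2 and 3. Both replicate 3 libraries held 0 reads, and the groups overlapped. Its ratio of reads was 0.269 with a 95% exact binomial counting interval from 0.125 to 0.533. If reads came in pairs, the interval ran from 0.0722 to 0.668. Both cover counting error only and not the spread between libraries. In the limma fit with no filter its log2 change was -1.30 ± 1.25 (SE; adjusted p = 0.669).

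YUC10 and YUC11 are known from the endosperm, and neither passed. YUC10 (AT1G48910) stood at 27.6, 32.4 and 40.3 in dm replicates 1, 2 and 3, and at 8.38, 45.1 and 27.1 in WT replicates 1, 2 and 3. WT held both the lowest and the highest library, and the dm libraries lay between them. The log2 change was 0.57 ± 0.66 (SE; limma adjusted p = 0.68), and without WT replicate 1, which had 10 reads, it was -0.078.

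YUC11 (AT1G21430) had few reads in dm, with 4, 2 and 0 reads in dm replicates 1, 2 and 3, and 7, 16 and 24 in WT replicates 1, 2 and 3. As normalized reads these were 3.25, 2.03 and 0 in dm, and 5.87, 15.7 and 27.1 in WT. The groups did not overlap, although WT replicate 1 was closer to dm than to WT replicate 3. The ratio of reads was 0.131, with an exact binomial counting interval from 0.0459 to 0.308, and from 0.0258 to 0.444 if reads came in pairs. Below the filter in the main test, it had a log2 change of -2.66 ± 0.88 (SE) in the limma fit with no filter and did not pass there (adjusted p = 0.126). EdgeR without its filter gave an adjusted p of 0.255, and the authors' deposited table gave 0.136. In the reference YUC11 overlaps AT1G21440, on the opposite strand, which stood at 2849 to 4104 in dm and at 3060 to 3559 in WT. Reads of the overlapping stretch cannot be assigned without strand, so YUC11 is uncertain.

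**Figure D2:**
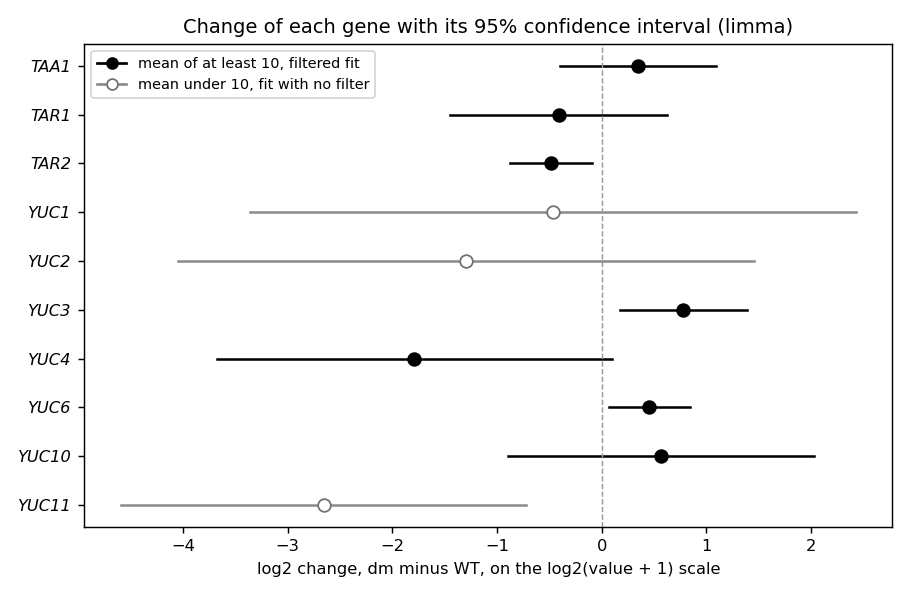
Log2 change of each gene, dm minus WT on the log2(value + 1) scale (x axis), with its 95% confidence interval from limma; filled points are the 7 genes tested with the filter and open points the 3 genes under it, from the fit with no filter. TAR2, YUC3, YUC6 and YUC11 have intervals that leave out zero before adjustment, and none passed after adjustment over all genes.

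The endosperm markers were set beside TAR1, YUC10 and YUC11. Of 7 endosperm markers 6 were tested, and limma, edgeR and DESeq2 called 0. At an unadjusted limma p under 0.05 stood 0, where 21.5% of all tested genes did. Of the 6 tested, 5 had a negative and 1 a positive log2 change, with a median of -0.31. Without dm replicate 3, where limma called 12.1% of all genes, it called ZOU lower. Their summed level was 2798 to 2959 in dm and 3015 to 3596 in WT. The sums did not overlap, but 0 of the 7 markers separated the genotypes on its own, and each had reads in every library. SUC5, a sucrose carrier of the endosperm, made up most of that sum, at 1632 to 1937 in dm and 1914 to 2205 in WT. FWA, which overlaps a gene on the opposite strand, had a log2 change of -0.34 (limma adjusted p = 0.487). AGL62, which delays endosperm cellularization, stood at 125, 95.2 and 79.4 in dm replicates 1, 2 and 3, and at 101, 159 and 130 in WT replicates 1, 2 and 3. The part of the endosperm share in the values of TAR1, YUC10 and YUC11 was not tested. The 3 pollen markers summed to 4805, 2760 and 2908 in dm replicates 1, 2 and 3, and to 5088, 5216 and 13158 in WT replicates 1, 2 and 3. The high end in WT was replicate 3 alone, and 1 of the 3 markers passed. PPME1 was lower in dm, with a log2 change of -1.81 (limma adjusted p = 0.0276), and did not pass without dm replicate 2 (limma adjusted p = 0.0984), with the robust prior in limma (adjusted p = 0.105) or with the replicate block in edgeR (adjusted p = 0.0505). Whether pollen bears on YUC2 and YUC6, which act in stamens, was not tested. Of the other markers, limma, edgeR and DESeq2 called 0 of 4 for seed coat, with 0 at an unadjusted limma p under 0.05. Among these, TTG2 had a log2 change of -0.29 (limma adjusted p = 0.326) and TT16 of -0.15 (limma adjusted p = 0.58). Of 5 fruit wall and valve margin markers, SHP1 was lower in dm (log2 change -0.53, limma adjusted p = 0.0273), and without any one library except dm replicate 3 it did not pass (limma adjusted p 0.0637 to 0.134), nor with the replicate block in edgeR (adjusted p = 0.0522). SHP1 overlaps genes on the opposite strand and is uncertain. Of 6 embryo and 9 storage markers 0 passed in limma. An unadjusted p under 0.05 was found for 1 of each, where 21.5% of all tested genes had one. Log2 changes were negative for 4 embryo markers and positive for 2, and positive for all 9 storage markers. The embryo marker WOX9 had a log2 change of 0.39 (limma adjusted p = 0.339). The storage gene CRU2 had one of 3.75 (limma adjusted p = 0.374), and the storage sum stood high in dm replicate 3 only. Limma after rescaling to one total called LEC1 lower. DESeq2 called LEC1 lower and OLEO4 higher, and gave an adjusted p to only 1 of the 9 storage genes. EdgeR with its filter tested 6 storage genes and called 0 of both lists, and with no filter it called LEC1 lower and 8 storage genes higher. Without dm replicate 3, where it called 12.1% of all genes, limma called LEC1, FUS3 and ABI3 lower and 0 of the 6 storage genes tested.

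Levels of different genes were compared per kilobase of the longest transcript in the TAIR10.1 reference, as the mean of 3 libraries. In dm the order was TAR2 (328 ± 68.4), YUC6 (314 ± 51.5), YUC3 (91.0 ± 7.74), TAA1 (74.3 ± 8.87), YUC10 (26.6 ± 5.12), TAR1 (25.8 ± 4.73), YUC1 (5.10 ± 7.66), YUC4 (3.33 ± 2.41), YUC2 (1.66 ± 2.25) and YUC11 (1.49 ± 1.39) normalized reads per kilobase (SD, n = 3). In WT it was TAR2 (452 ± 32.4), YUC6 (228 ± 30.9), TAA1 (60.5 ± 21.9), YUC3 (52.9 ± 7.60), TAR1 (34.5 ± 5.70), YUC10 (21.4 ± 14.6), YUC11 (13.8 ± 9.02), YUC4 (11.3 ± 1.88), YUC1 (6.75 ± 8.43) and YUC2 (5.83 ± 5.09). TAR2 and YUC6 overlapped in dm and did not in WT, and TAA1 and YUC3 overlapped in WT and did not in dm. TAR1 and YUC10 overlapped in both genotypes, as did each neighbouring pair from YUC10 downward in WT and from YUC1 downward in dm. TAR1 and YUC11 have only coding bases in the reference, so their levels per kilobase may be too high. With the summed exon length in place of the longest transcript, TAR2 was 289 in dm and 397 in WT, which put it below YUC6 in dm.

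Summed per kilobase, the 3 aminotransferase genes were lower and the 7 monooxygenase genes higher in each dm library than in each WT library, as a description with no test. The aminotransferase sum was 461, 468 and 356 in dm replicates 1, 2 and 3, and 567, 527 and 546 in WT replicates 1, 2 and 3. The monooxygenase sum was 403, 419 and 507 in dm replicates 1, 2 and 3, and 345, 367 and 309 in WT replicates 1, 2 and 3. The ratio of the monooxygenase sum to the aminotransferase sum was 0.874, 0.895 and 1.42 in dm, and 0.609, 0.697 and 0.565 in WT. Single genes did not all go with their sum. TAA1 had a higher mean in dm, and YUC1, YUC2, YUC4 and YUC11 had lower means in dm. TAR2 and YUC6 set most of both sums. TAR2 made up 70.0% to 80.3% of the first in dm and 77.3% to 85.8% in WT, and YUC6 made up 68.8% to 73.5% of the second in dm and 62.5% to 72.6% in WT. YUC4 and YUC11 held 0.285% to 1.17% and 0% to 0.685% of the monooxygenase sum in dm, and 2.51% to 3.87% and 1.45% to 7.45% in WT.

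**Figure D3:**
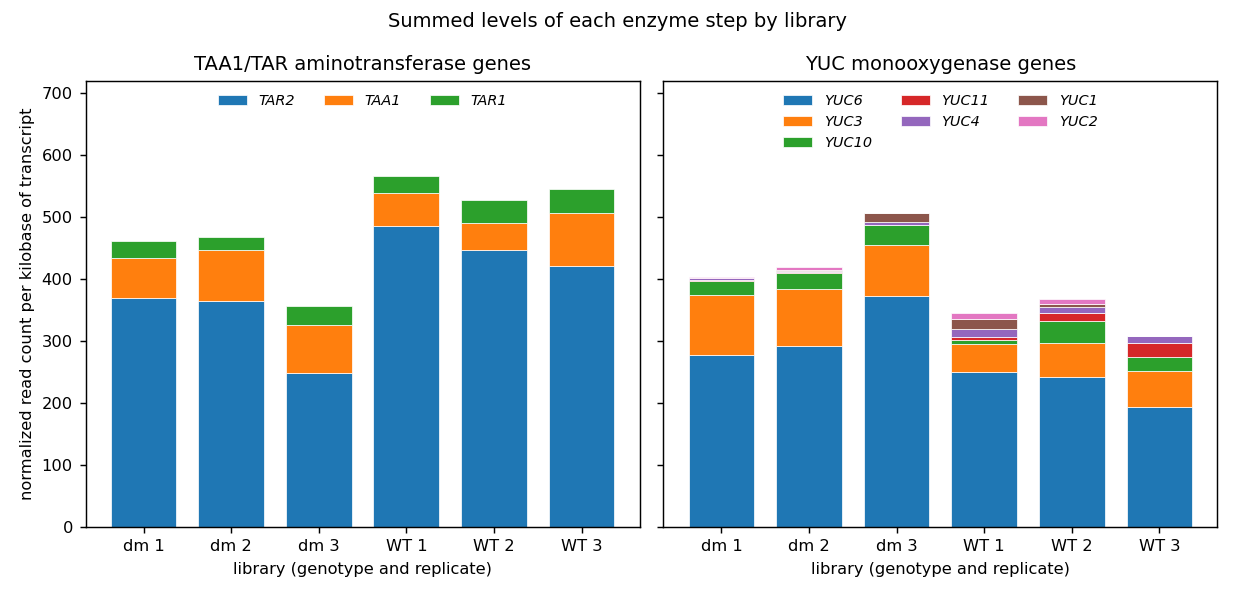
Normalized read count per kilobase of transcript (y axis, stacked by gene) for the 3 aminotransferase genes (left) and the 7 monooxygenase genes (right) in each library, dm left of WT. The aminotransferase sum is 356 to 468 in dm and 527 to 567 in WT, and the monooxygenase sum is 403 to 507 in dm and 309 to 367 in WT.

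The other 4 members of the YUC family were low. YUC5 and YUC7 had 0 reads in all 6 libraries, and YUC9 had 0 in dm. YUC8, a target of phytochrome-interacting factors, was the only one of the 4 that passed the filter, at 13.0, 2.03 and 32.8 in dm replicates 1, 2 and 3, and at 25.2, 5.88 and 18.0 in WT replicates 1, 2 and 3. Per kilobase YUC8 was 9.18 ± 8.98 in dm and 9.43 ± 5.62 in WT (SD, n = 3 each), and in both genotypes it overlapped YUC1, YUC2, YUC4 and YUC11 per kilobase. It overlapped between the groups and did not pass (limma adjusted p = 0.857). EdgeR with its filter and DESeq2 each gave an adjusted p to 1 of the 4, edgeR with no filter to 2, and all called 0.

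Upstream of the aminotransferases, limma, edgeR and DESeq2 called 0 of 8 tryptophan synthesis genes, with a median log2 change of 0.06. An unadjusted limma p under 0.05 was found for 2 of the 8, where 21.5% of all tested genes had one. ASA1 (AT5G05730), anthranilate synthase, the enzyme at the entry to tryptophan synthesis, stood at 497, 463 and 291 in dm replicates 1, 2 and 3, and at 584, 711 and 660 in WT replicates 1, 2 and 3. Its log2 change was -0.68 ± 0.22 (SE) and did not pass (limma adjusted p = 0.0923). ASA1 overlaps other genes in the reference and is uncertain. The gene of indole-3-glycerol phosphate synthase (AT2G04400) stood at 992 to 1113 in dm and 767 to 890 in WT (limma adjusted p = 0.171). ASA1 was lower and AT2G04400 higher in each dm library than in each WT library, and AT2G04400 overlaps a gene on the opposite strand too.

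In the side route from tryptophan through indole-3-acetaldoxime and nitriles, 0 of 8 genes passed in limma, with a median log2 change of -0.29. Of the 8, 3 had an unadjusted p under 0.05, where 21.5% of all tested genes did. NIT2 (AT3G44300), a nitrilase, stood at 657, 651 and 1838 in dm replicates 1, 2 and 3, and at 1946, 2276 and 2236 in WT replicates 1, 2 and 3. Every dm library was below every WT library, but dm replicate 3 lay near WT. Its log2 change was -1.22 ± 0.33 (SE; limma adjusted p = 0.0546), and without dm replicate 3 it was -1.71 and passed (limma adjusted p = 2.96e-05). NIT2 also passed in limma after rescaling to one total, with quantile normalization and with the replicate block, and in edgeR with no filter, and edgeR with its filter and DESeq2 called 0 genes of this route. NIT3 (AT3G44320) stood at 50.4 to 58.4 in dm and 104 to 133 in WT (limma adjusted p = 0.0862), and NIT1 at 14152 to 17977 in dm and 16526 to 17477 in WT. Without dm replicate 3, where 12.1% of all genes passed, SUR2 passed higher and AMI1 lower as well.

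Downstream, 8 of 10 genes for auxin inactivation or release were tested and 0 passed in limma, edgeR or DESeq2, with a median log2 change of -0.22. Of the 8, 2 had an unadjusted limma p under 0.05, where 21.5% of all tested genes did. UGT84B1 (AT2G23260), which attaches glucose to auxin, stood at 16.2, 30.4 and 99.5 in dm replicates 1, 2 and 3, and at 93.9, 72.5 and 138 in WT replicates 1, 2 and 3. Its limma adjusted p was 0.217 with all libraries. Without dm replicate 3, where 12.1% of all genes passed, the limma adjusted p was 0.0159 and UGT84B1 passed lower. VAS1 (AT1G80360), an aminotransferase that takes indole-3-pyruvate back to tryptophan, stood at 1671 to 1972 in dm and 2077 to 2460 in WT, without overlap (limma adjusted p = 0.178). DAO1, an enzyme that oxidizes auxin, stood at 361 to 437 in dm and 438 to 590 in WT. It was not among the 2 genes with an unadjusted limma p under 0.05, which were UGT84B1 and VAS1.

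Of 13 factors reported to act on TAA1 or YUC genes 12 were tested, and 0 passed in limma with the settings above and all 6 libraries. At an unadjusted p under 0.05 stood 4, where 21.5% of all tested genes did, the median log2 change was -0.38, and 10 of the 12 were negative. LEC1 (AT1G21970), an embryo regulator reported to activate YUC10, stood at 113, 148 and 421 in dm replicates 1, 2 and 3, and at 572, 509 and 515 in WT replicates 1, 2 and 3. All dm libraries were below WT, with dm replicate 3 nearest, and the log2 change of -1.47 ± 0.40 (SE) just missed the threshold (limma adjusted p = 0.0551). SPT (AT4G36930), a basic helix-loop-helix factor of the gynoecium, stood at 299, 303 and 348 in dm replicates 1, 2 and 3, and at 579, 436 and 505 in WT replicates 1, 2 and 3 (log2 change -0.67 ± 0.18 SE; limma adjusted p = 0.0532). In limma on all 6 libraries SPT passed with a minimum mean of 50 (adjusted p = 0.047), with the robust prior (adjusted p = 0.0488) and after rescaling to one total (adjusted p = 0.0345), and LEC1 after that rescaling (adjusted p = 0.0378). DESeq2 called LEC1 and SPT lower, and edgeR called SPT with its filter and both without it. Without dm replicate 3, where limma called 12.1% of all genes, it called 5 of the 12 lower: PIF4, PIF7 (which overlaps a gene on the opposite strand), LEC1, FUS3 and SPT.

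**Figure D4:**
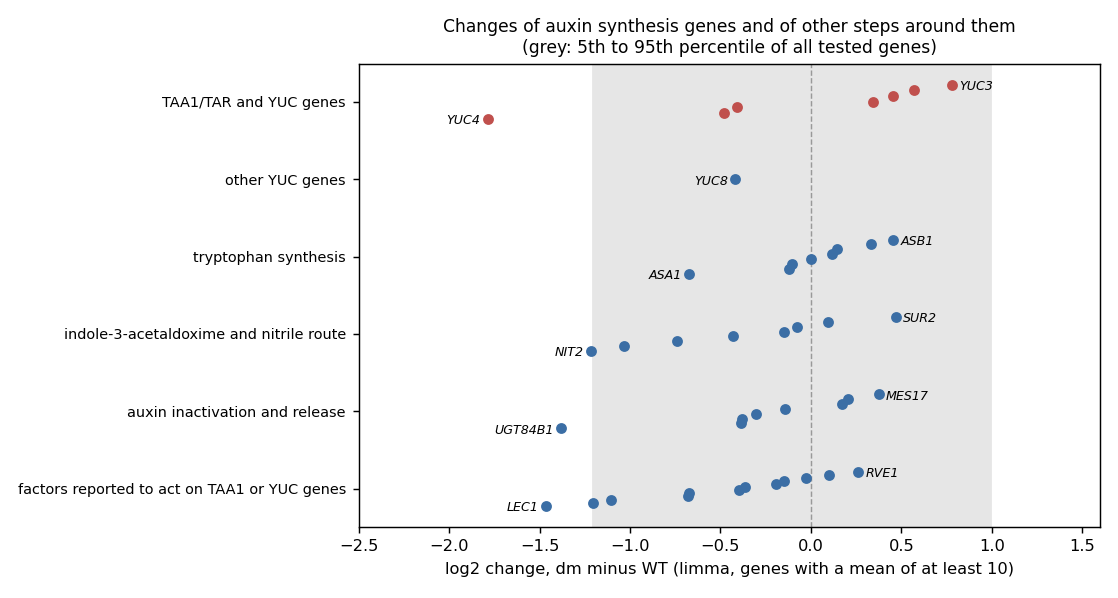
Log2 change, dm minus WT from limma (x axis), of the 7 tested TAA1/TAR and YUC genes (red) and of the tested genes in 5 neighbouring lists (blue), with the lowest and highest gene of each list named; the grey band runs from the 5th to the 95th percentile of all tested genes, -1.20 to 1.00. YUC4 lies below the band and the other 6 TAA1/TAR and YUC genes inside it, 2 of them lower and 4 higher than zero.

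The genes whose pattern over the 6 libraries was most like each tested gene were found by Pearson's r of log2 values among 8201 or 8202 tested genes with a symbol and a mean of at least 50. The points share libraries and depth, and the measure is a description. YUC3 was followed most closely by ADC2, an arginine decarboxylase gene (r = 0.997), and GPAT8, a cutin synthesis gene (r = 0.996), and 186 genes were above 0.95. For TAR2 these were NAT7 and MOS7 (r = 0.995 each, 57 genes above 0.95). YUC6 was nearest to Hop1 and CYP72A15 (r = 0.992 and 0.990, 48 genes above 0.95). YUC4 was nearest to UMAMIT30 and SNRK2.2 (r = 0.998 and 0.997, 126 genes above 0.95). TAA1 was nearest to CKS and ORC2 (r = 0.982 and 0.978), TAR1 to GC1 and UVR8 (r = 0.979 and 0.977), and YUC10 to FYD and ABCF3 (r = 0.989 and 0.984). Only 5 genes for TAA1, 16 for TAR1 and 13 for YUC10 were above 0.95. How many would be so by chance, among this many candidates over 6 libraries, was not tested.

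**Figure D5:**
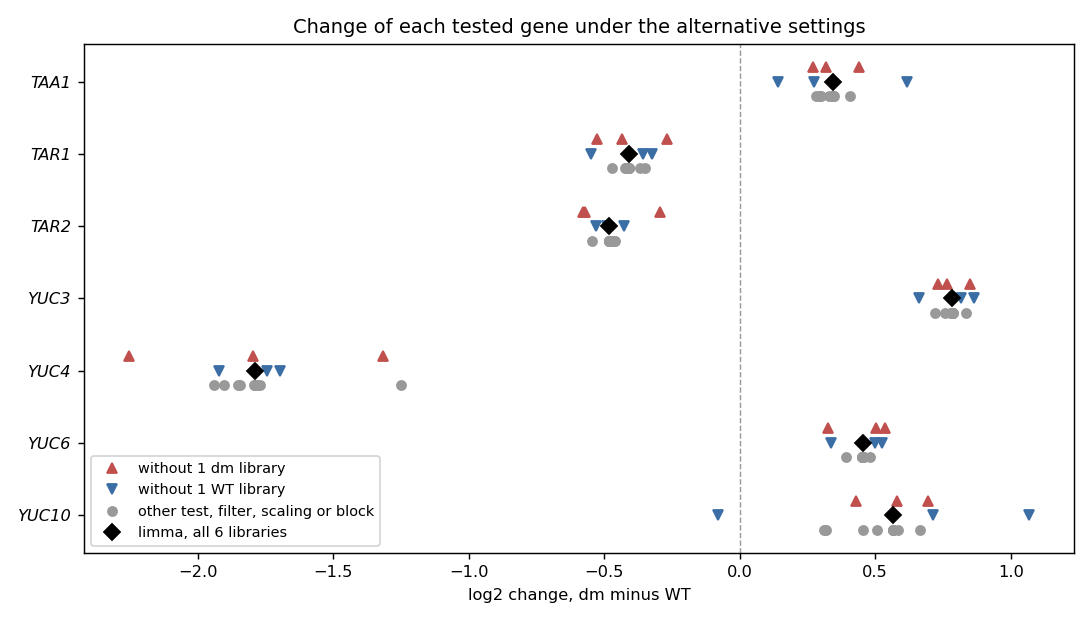
Log2 change, dm minus WT (x axis), of the 7 tested genes with all 6 libraries in limma (black diamonds), without each dm library (red, pointing up), without each WT library (blue, pointing down) and under the other tests, filters, scalings and blocks (grey). YUC10 crosses zero without WT replicate 1, at -0.078, and the other 6 genes keep their sign.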

How the data were processed

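The authors deposited a normalized signal, in which the reads of a gene were scaled by a size factor for each library. The submitters' processing notes name, with no role or order, DESeq2, Trim Galore, STAR 2.5.2a, SAMtools, featureCounts and Subread. No source used here gives the genome build, annotation, strand setting or handling of multi-mapping reads, and coordinates are left out. Dividing by the smallest value in a library gave whole numbers (tolerance 1e-06) for 100% of values, and these recovered reads were used in the count tests. Counts of 1 to 20 reads were even in 69.3% to 73.9% of cases and those above 100 and up to 1000 reads in 49.6% to 52.4%. Whether reads were counted in pairs was not stated, and counting intervals cover counting error only. By header, the authors' second deposited table holds log2 fold changes, a score labelled stat, p-values with their adjusted form, and a mean signal.

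Genes with a mean of at least 10 were tested with limma 3.58.1 (R 4.3.3, variance trend) on log2(value + 1), dm minus WT, with no term besides genotype. The test was two-sided, with Benjamini-Hochberg adjustment over 21751 genes and a threshold of 0.05. The added 1 can shrink the change of low genes. Folds on this scale compare means of logs, and may be smaller or larger than the ratio of means. For YUC10 the fold was 1.48 on this scale and 1.25 from the means. EdgeR 4.0.16 and DESeq2 1.42.0 on the recovered reads were alternatives. An exact permutation of 3 against 3 libraries cannot go below 0.1 and is not used. Near-identical copies (at least 95% identity over 150 bases, BLAST 2.17.0, TAIR10.1 transcripts) were found for none of the 10 genes. The reference held 37051 of 37336 identifiers. All 10 genes are named. From every neighbouring or marker list the rule named up to 4 genes past the threshold, or the 2 with the smallest p. Any further gene was named with its values in view. Members and lists were chosen with earlier results of these data known.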

Additional observations from a re-analysis of the deposited data

How the results depend on the processing

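None of the 10 genes was called under any of the 18 alternatives: other pseudocounts (0.5 and 5), filters, scalings, a robust prior, edgeR, DESeq2, a replicate block and leaving out each library. Where a filter applied, not all 10 were tested. Of 123 values of the 7 tested genes under these settings, 122 kept their direction. YUC10 ranged from -0.078 without WT replicate 1 to 1.07 without WT replicate 2, and YUC8 from -1.21 without dm replicate 3 to 0.53 without dm replicate 2. The count of all genes called was 1476, and was 2397 with DESeq2. It ranged from 571 to 2613 when each library was left out, highest without dm replicate 3. The cause was not tested. With the replicate block, 1203 genes were called in limma and 1009 in edgeR. Same-numbered libraries did not deviate together (correlations of -0.08, -0.002 and -0.17 for numbers 1, 2 and 3), while their depths were close, at 39246167 reads in dm and 38196040 in WT for number 1, 31569842 and 31503946 for number 2, and 26771227 and 27046107 for number 3. What else same-numbered libraries share was not stated. YUC4 ranged from -2.25 to -1.25 over the settings, TAA1 from 0.14 to 0.62, TAR1 from -0.55 to -0.27, TAR2 from -0.58 to -0.29, YUC3 from 0.66 to 0.87 and YUC6 from 0.32 to 0.54. With the summed exon length, chosen after seeing the data, the WT level of YUC4 per kilobase was 8.90. Depth limits YUC1, YUC2, YUC4 and YUC11, which had 6 to 60 reads per genotype over 3 libraries, and fewer independent counts if reads came in pairs.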
